A study of Mus musculus with 9 samples.

Results

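The mitochondrial ribosomal protein genes were taken as all protein-coding genes whose symbol begins with Mrpl or Mrps followed by a number, after each gene identifier in the count tables had been matched to its symbol. The rule found 78 genes among 48440 in the tables, 49 named Mrpl and 29 named Mrps, on 17 chromosomes. Another 5 symbols of this form belonged to processed pseudogenes and were not counted as members. Poly(A) RNA was sequenced from J1 mouse embryonic stem cells (mESCs) whose Suz12, a core subunit of Polycomb repressive complex 2, carried an auxin-inducible degron tag (genotype Suz12-AID). All cells grew on gelatin in medium with serum, LIF and the inhibitors PD0325901 and CHIR99021. There were 3 groups of 3 biological replicates. The Mock libraries came from the tagged line without auxin as far as the labels say, and what these cells received in its place is not given in the sources used here. The Auxin libraries came from cells kept in 50 µM indole-3-acetic acid for 96 h, which targets the tagged Suz12 protein for degradation. The Reintroduction libraries came from cells after a washout of 4.5 h. The labels do not say whether these were the same cells after the full auxin treatment, so the groups are not read as a time course. Below, rose and fell mean higher and lower in the group named first in a comparison. Values given as after the washout are those of Reintroduction against Auxin. All 3 groups carried the tagged allele, so no library shows untagged cells, and how many clones were used is not given in the sources used here.

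Mitochondria carry their own ribosome, the mitoribosome, which translates the few mRNAs of the mitochondrial genome into core subunits of the respiratory chain. Its rRNAs come from mitochondrial DNA, but its proteins are encoded in the nucleus, made in the cytosol and imported. Some of these proteins have homologues in bacterial ribosomes and others are found only in mitochondria. Of the 78 members, 51 encode proteins of the large subunit and 26 proteins of the small subunit. Mrps36 was kept apart, because its protein is also known as a component of the 2-oxoglutarate dehydrogenase complex. The symbols do not always give the subunit: Mrps18a and Mrps30 encode large-subunit proteins (mL66 and mL65). By origin, 46 members have a bacterial homologue and 31 are specific to mitochondria.

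The libraries held 44341283 to 113931419 counts, and the 78 members took 0.398 to 0.419% of them in Mock, 0.266 to 0.304% in Auxin and 0.300 to 0.301% in Reintroduction. Suz12 mRNA stood between 122 and 173 CPM (read counts scaled to the size of the library) in all 9 libraries; degradation acts on the protein, so this value does not check the labels. All 8 stem cell markers examined were detected; in Auxin 6 were higher and 2 lower (Pou5f1 and Dppa5a). Their summed level was 5541 to 5666 CPM in Mock, 6781 to 7285 in Auxin and 5309 to 5407 in Reintroduction. Summed markers of primitive endoderm were at 5.998 to 7.47, 22.7 to 23.6 and 14.2 to 16.0 CPM in the same order, and all 7 of them passed the test in Auxin. Summed trophoblast markers were at 74.1 to 78.5, 129 to 144 and 152 to 155 CPM; in Auxin 4 of 6 tested were higher and 2 lower (Cdx2 and Eomes), with Elf5 at a mean of 0.0395 CPM or less in each group. Of the 8 fibroblast markers, 4 entered the test, and in Auxin 2 were higher, 1 lower and 1 not called. Col3a1, Dcn and Lum were at 0 in Auxin. Thy1 held most of the fibroblast sum, which was 18.6 to 20.7, 40.4 to 47.5 and 38.1 to 39.4 CPM. The part of all these markers in the results below was not tested. The second Auxin library stood apart from the other two: it was the highest of the 3 Auxin libraries for 74 of the 77 members tested. The first Mock library was likewise the highest Mock library for 71 of 77. Counts were compared with edgeR's quasi-likelihood test over all 20838 genes with enough counts, and a gene was called when its adjusted p was under 0.05. Of the members, 77 entered the test. Mrpl53 did not, with 1 to 6 counts in a library.

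Transcripts of nearly all mitochondrial ribosomal protein genes were lower in Auxin than in Mock. Their summed level was 4251 to 4630 CPM in the 3 Mock libraries and 2466 to 2878 CPM in the 3 Auxin libraries, so the groups did not overlap. Of the 77 members tested, 74 fell, 1 rose (Mrpl23) and 2 were not called (Mrpl17 and Mrpl57). Across all genes tested, 73.2% were called in this comparison, 34.8% as lower and 38.4% as higher. The median log2 fold change was -0.74 for the members and 0.05 for all genes. The median member stood at 59.9% of its Mock level, and the range was 21.6% (Mrps12) to 155% (Mrpl23). For 73 members every Auxin library was below every Mock library, which held for 35.8% of all genes. A fall of at least 2-fold was called for 17 members, against 12% of all genes, and a rise of that size for 0, against 19.8%. Scaling by total counts in place of TMM factors moved the median of all genes to 0.26 and that of the members to -0.53, with 64 members lower and 1 higher, and the distance between the medians was -0.79 under both. In bulk RNA, fewer cells of a type and less of a transcript per cell cannot be told apart.

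**Figure D1:**
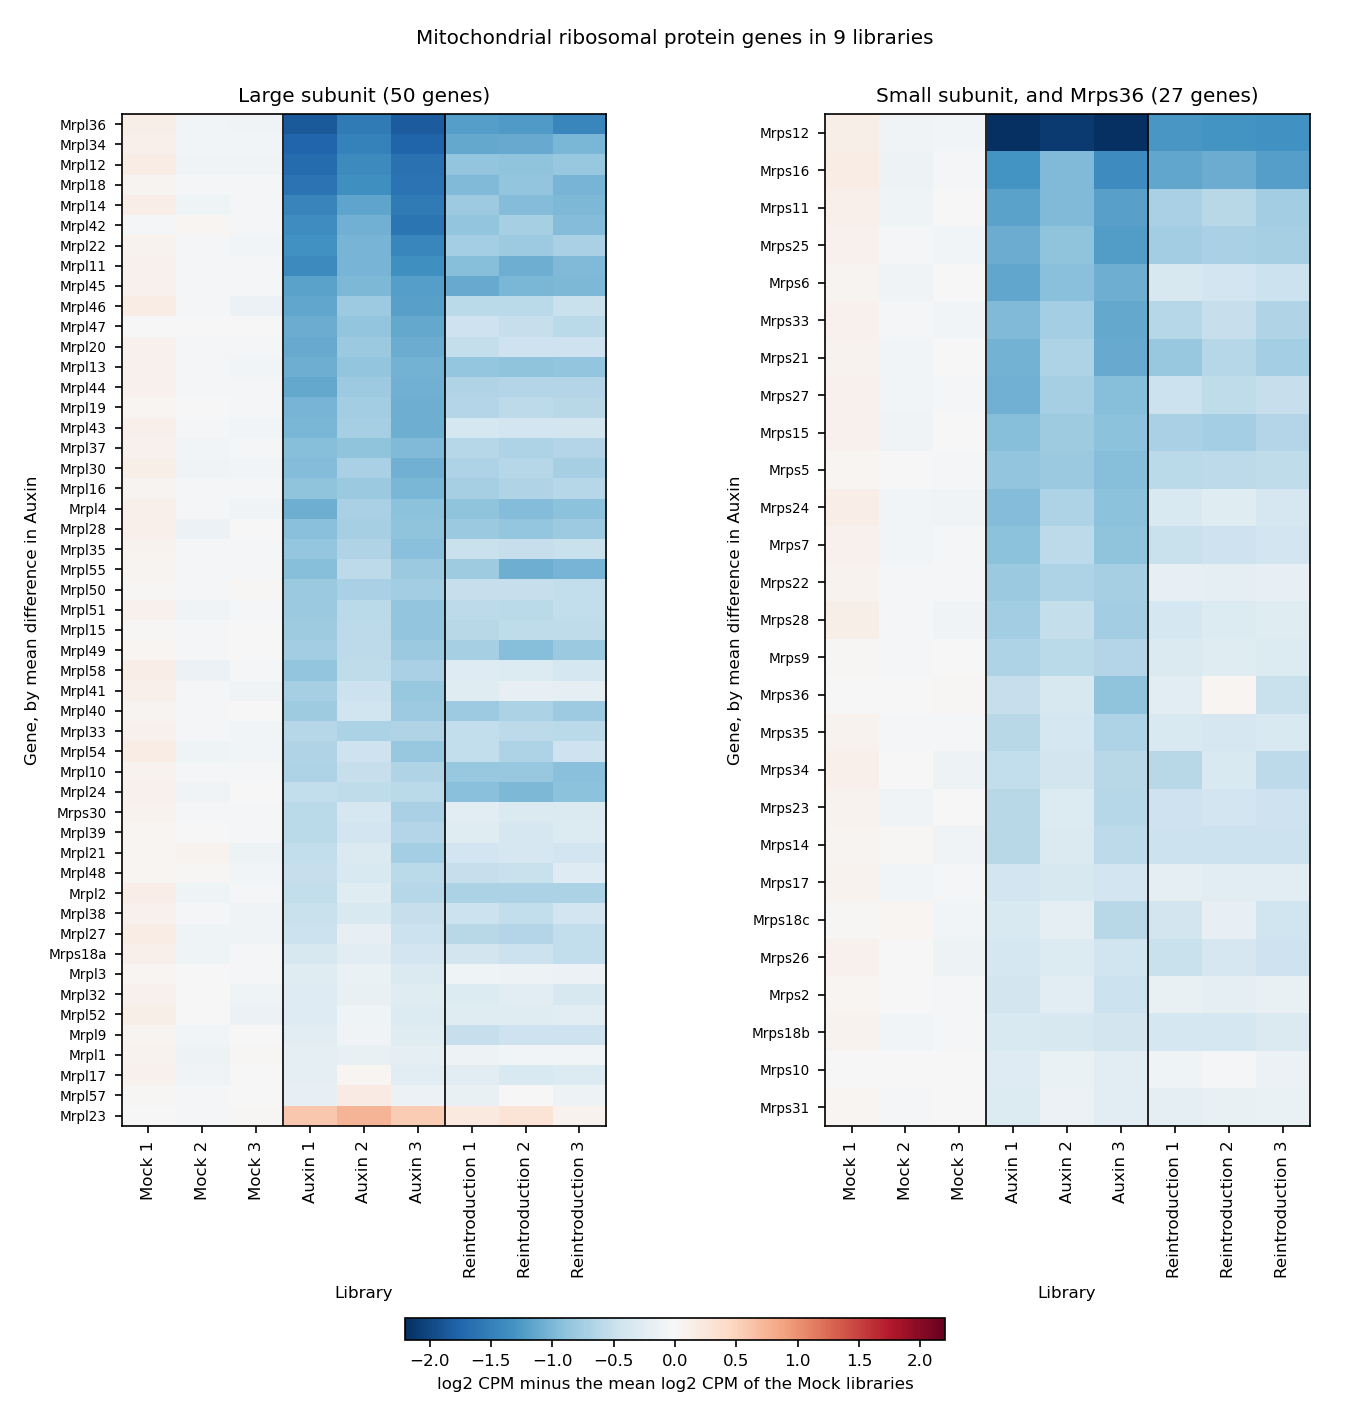
Level of each tested mitochondrial ribosomal protein gene in the 9 libraries, as log2 CPM minus the mean log2 CPM of the Mock libraries, with large-subunit genes on the left and small-subunit genes and Mrps36 on the right, sorted by the mean of the Auxin libraries. Blue cells are below Mock: 74 of 77 members fell in Auxin, Mrpl23 at the bottom of the left panel is the 1 that rose, and the Auxin 2 column is paler than Auxin 1 and Auxin 3.

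The largest fall was that of Mrps12, which encodes uS12m, the protein at the decoding centre of the small subunit (chr7:28739641-28741820, minus strand, mm10). It measured 66.9, 57.9 and 58.8 CPM in Mock, 12.9, 14.1 and 12.7 CPM in Auxin and 25.3, 24.5 and 24.3 CPM in Reintroduction. The 3 groups formed separate bands, with Auxin lowest and Reintroduction between Auxin and Mock. The log2 fold change in Auxin was -2.21 ± 0.07 (SE, adjusted p = 6.72e-10). Mrpl36, which encodes bL36m of the large subunit (chr13:73331009-73332175, plus strand), measured 60.8, 52.9 and 52.7 CPM in Mock and 15.4, 18.9 and 15.5 CPM in Auxin, a change of -1.74 ± 0.10 in log2 (SE, adjusted p = 2.64e-08). Mrpl34 (bL34m; chr8:71464926-71465752, plus strand) measured 61.1, 54.7 and 54.7 CPM in Mock and 17.0, 20.1 and 16.7 CPM in Auxin, a change of -1.66 ± 0.08 in log2 (SE, adjusted p = 1.11e-08). For both genes every Auxin library lay far below every Mock library. Mrpl12 encodes bL12m, the protein of the stalk that receives translation factors, which is also known to bind the mitochondrial RNA polymerase (chr11:120484613-120489065, plus strand). It measured 82.8, 70.5 and 69.9 CPM in Mock and 23.0, 28.1 and 23.8 CPM in Auxin, a change of -1.58 ± 0.09 in log2 (SE, adjusted p = 2.87e-08).

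Members with the highest level per length were among those that fell most. The 3 highest by CPM per kilobase of exon (RPKM) in Mock were Mrpl18 at 95.9 ± 3.72, Mrpl34 at 88.1 ± 5.75 and Mrps16 at 82.7 ± 8.12 (SD, n = 3), against a median of 25.4 over the members, 67.6 over the cytosolic ribosomal protein genes and 3.62 over all protein-coding genes tested. Mrpl18 encodes uL18m, which lies next to the central protuberance. It measured 140, 132 and 130 CPM in Mock and 43.3, 52.4 and 43.3 CPM in Auxin, and fell by 1.53 on the log2 scale (with an SE of 0.08, adjusted p = 1.65e-08). Mrps16, which encodes bS16m, measured 52.0, 43.3 and 45.1 CPM in Mock and 18.7, 23.8 and 17.9 CPM in Auxin, and fell by 1.22 on the log2 scale (with an SE of 0.11, adjusted p = 9.99e-07). Over the 77 members, the log2 fold change in Auxin and log2 RPKM in Mock had a Pearson correlation of -0.53 and a Spearman correlation of -0.46; the Mock counts enter both quantities, and genes are not independent replicates. Exon length also enters the RPKM, and after the length trend described below was removed the Pearson correlation was -0.12.

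**Figure D2:**
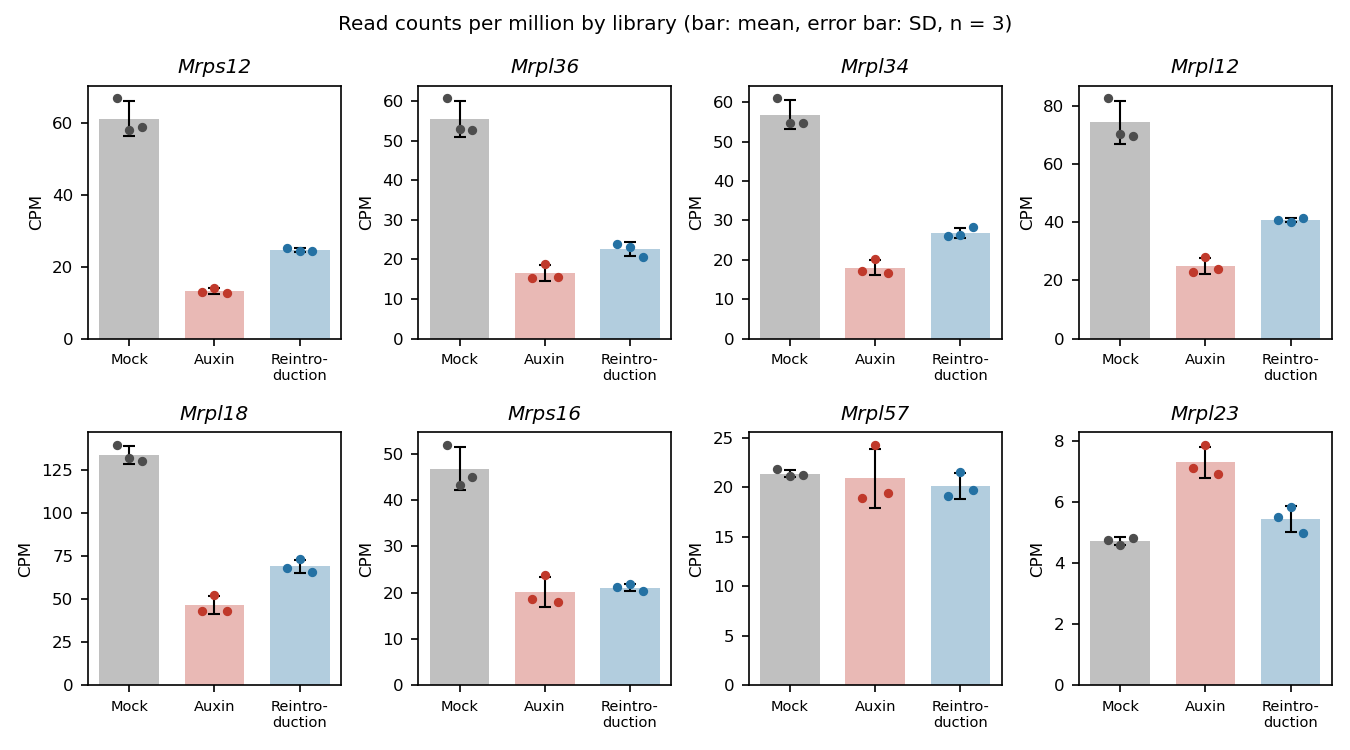
CPM in each library (points), group mean (bar) and SD (error bar, n = 3) for 8 mitochondrial ribosomal protein genes. In Mrps12, Mrpl36, Mrpl34, Mrpl12 and Mrpl18 the Auxin libraries are lowest and the Reintroduction libraries lie between Auxin and Mock, Mrps16 is low in both, Mrpl57 overlaps in all 3 groups, and Mrpl23 is highest in Auxin at 6.94 to 7.90 CPM.

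By place in the large subunit, 47 of 50 members tested fell in Auxin, and the median over the subunit was -0.75 in log2. All 3 members of the stalk fell: beside Mrpl12, Mrpl11 (uL11m) by 1.25 and Mrpl10 (uL10m) by 0.61 on the log2 scale. Around the peptidyl transferase centre, where the peptide bond is made, Mrpl16, Mrpl2, Mrpl27 and Mrpl3 fell, with log2 fold changes between -0.90 (Mrpl16) and -0.24 (Mrpl3); with the length trend described below removed, 2 of the 4 were still called lower, and Mrpl27 went to 0.12 (called higher with length and GC trends removed). Of the 7 members that line the exit tunnel or surround its mouth, 5 fell: Mrpl22 (-1.25), Mrpl45 (-1.12), Mrpl47 (-1.03), Mrpl4 (-0.89) and Mrpl24 (-0.57). The protein of Mrpl45 is known to anchor the ribosome to the inner membrane. The other two members of the tunnel group were the exceptions named above, Mrpl17 at -0.14 and Mrpl23 at 0.63. Mrpl58, whose protein is a peptidyl-tRNA hydrolase built into the subunit, measured 29.3, 24.4 and 26.2 CPM in Mock and 14.5, 18.1 and 16.1 CPM in Auxin and fell by 0.71 on the log2 scale (with an SE of 0.09, adjusted p = 2.21e-05). Mrps30 (-0.55) and Mrps18a (-0.34), the large-subunit members with small-subunit names, fell as well.

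In the small subunit all 26 members fell, and their median was -0.72 in log2. At the decoding centre and the entry of the mRNA, Mrps5 (uS5m, -0.87) and Mrps24 (uS3m, -0.84) fell beside Mrps12. On the platform, Mrps11 (uS11m) fell by 1.11, Mrps6 (bS6m) by 1.04, Mrps21 (bS21m) by 0.93 and Mrps18c (bS18m) by 0.37. In the head, Mrps7 (-0.78), Mrps9 (-0.63), Mrps14 (-0.49) and Mrps10 (-0.22) fell, so the changes there were smaller than in Mrps12; with the trend on principal transcript length removed, Mrps10 was called higher. Mrps25, a member specific to mitochondria, measured 70.4, 63.6 and 62.9 CPM in Mock and 30.9, 35.7 and 28.1 CPM in Auxin (log2 fold change -1.06 ± 0.08, SE, adjusted p = 4.37e-07). The 3 paralogs of bacterial S18 all fell, by 0.34 (Mrps18a), 0.36 (Mrps18b) and 0.37 (Mrps18c) on the log2 scale; with the length of the principal transcript taken into account all 3 were slightly above 0, at 0.11, 0.03 and 0.19. Mrps18c was the lowest tested member by CPM, with 2.18 to 2.35 CPM in Mock and 1.504 to 1.99 CPM in Auxin, and 103 to 240 counts behind these values. Members with a bacterial homologue had a median of -0.83 (44 of 46 fell) and members specific to mitochondria -0.67 (29 of 30 fell); the difference between these classes was not tested.

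Of the members that did not fall, Mrpl57 (mL63) measured 21.8, 21.1 and 21.2 CPM in Mock and 18.9, 24.3 and 19.5 CPM in Auxin, so that the second Auxin library was above and the other two below all Mock libraries (log2 fold change -0.03 ± 0.09, SE, adjusted p = 0.757). Mrpl17 (bL17m) measured 83.9, 74.7 and 78.7 CPM in Mock and 67.9, 81.2 and 67.0 CPM in Auxin, where again only the second Auxin library reached into the Mock range (log2 fold change -0.14 ± 0.08, SE, adjusted p = 0.137). Without that library both were called lower, and 76 members fell with a median of -0.80. Mrpl23, which encodes uL23m at the mouth of the tunnel (chr7:142532686-142540747, plus strand), measured 4.77, 4.59 and 4.81 CPM in Mock, 7.12, 7.90 and 6.94 CPM in Auxin and 5.51, 5.83 and 5.00 CPM in Reintroduction. The Auxin libraries were above all others, with a change of 0.63 ± 0.09 in log2 (SE, adjusted p = 4.55e-05). Its value is uncertain, because a processed copy on chromosome 2, Mrpl23-ps1, held most of the reads of the pair: the gene itself took 14.4% of their summed level in Mock, 18.1% in Auxin and 14.5% in Reintroduction. The sum of both was 32.9 ± 1.83 CPM in Mock, 40.6 ± 4.69 in Auxin and 37.6 ± 0.953 in Reintroduction (SD, n = 3). The copy was called higher in Auxin as well (log2 fold change 0.24 ± 0.08, SE, adjusted p = 0.0230), with overlapping groups. Mrpl48 and Mrps36 also have processed copies that hold most of the reads; there the copies Mrpl48-ps (-0.53), Mrps36-ps1 (-0.63) and Mrps36-ps2 (-0.57) fell beside Mrpl48 (-0.48) and Mrps36 (-0.56). Exon sequence is shared with another annotated gene by 30 members, and reads within such a shared stretch could not be assigned by the unstranded counting; the other 48 gave a median of -0.71, with 45 lower and 1 higher.

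The members are short genes, and in these libraries the level of a gene against the other groups followed its length. The slope of log2 CPM on log2 exon length, against the mean of the 9 libraries, was -0.25 to -0.17 per doubling in Mock, 0.01 to 0.15 in Auxin and 0.08 to 0.10 in Reintroduction. The second Auxin library had the slope of 0.01. The median exon length was 2064 bp over the members and 3909 bp over the protein-coding genes tested, and 42 of the 77 members were in the shortest 2 of 10 length classes of equal size. In the shortest class the other genes had a median change of -0.41 in Auxin and the 27 members one of -0.89. In the ninth class, of 6837 to 9058 bp, the other genes had a median of 0.43 and the 7 members one of -0.56. In all, 71 of 77 members were below the median of the other genes of their own length class. Across the 77 members the Pearson correlation of the Auxin change with log2 exon length was 0.37 (0.18 with the principal transcript length), and it was 0.21 over the 14741 protein-coding genes, again across genes and not across replicates. With the length trend removed, the correlation over the members was -0.32.

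**Figure D3:**
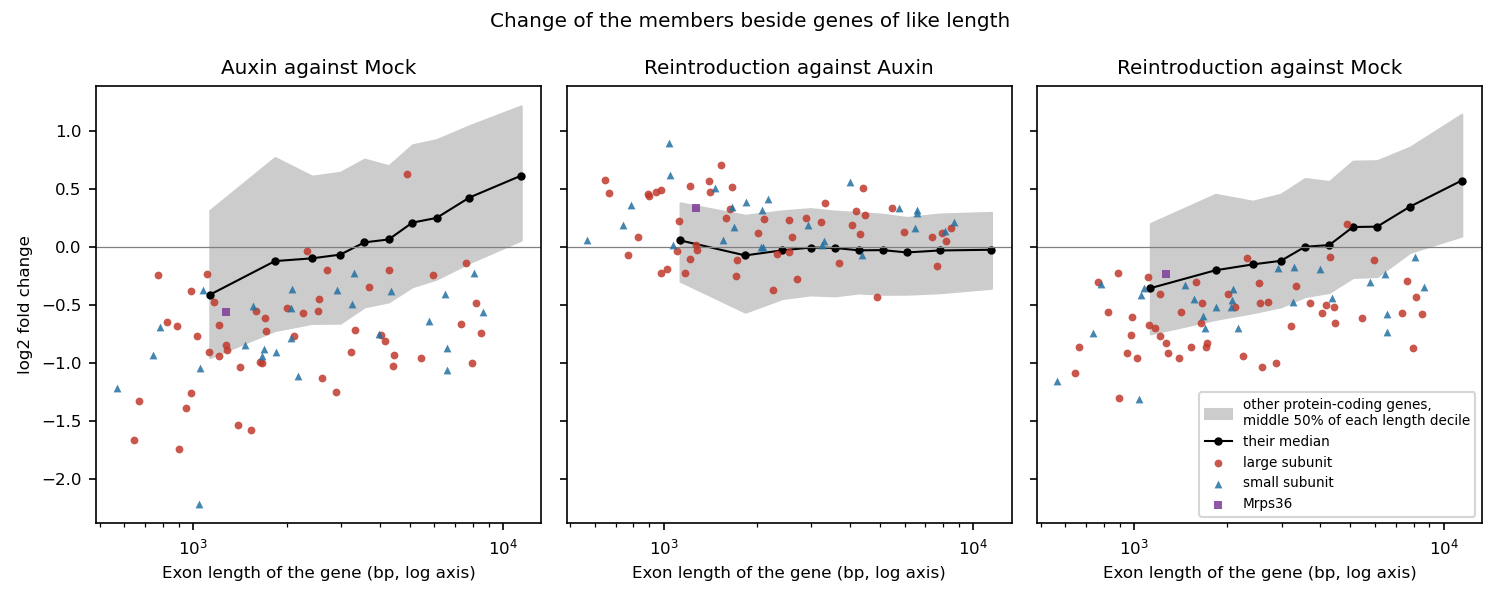
Log2 fold change of each mitochondrial ribosomal protein gene (coloured symbols) against its exon length in bp on a log axis, in the 3 comparisons; the black line is the median and the grey band the middle 50% of the other protein-coding genes in each of 10 length classes. In Auxin against Mock the line runs from -0.41 to 0.62 and 71 of 77 members lie below the median of their class; in Reintroduction against Auxin 19 of 77 do.

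With the trend on length removed in each library, 66 members were still lower in Auxin, 3 were higher and the median was -0.54. The median of all genes was 0.15, and 31.6% of them were called lower and 42.2% higher. The trend was fitted on protein-coding genes, and the 14741 of these that were tested had a median of 0.05, with 37.1% lower and 40.5% higher. The 5 genes with the largest falls were still called, Mrps12 at -1.74, Mrpl12 at -1.26, Mrpl36 at -1.21, Mrpl18 at -1.18 and Mrpl34 at -0.998. Members with a long deposited exon length moved further down: Mrpl13 (uL13m) went from -0.997 to -1.39 and Mrps25 from -1.06 to -1.34. Mrpl13 had measured 65.4, 59.9 and 58.4 CPM in Mock and 28.9, 33.5 and 29.6 CPM in Auxin. Members with a short deposited exon length and a small fall changed sign: Mrpl32 (bL32m, 768 bp) went from -0.24 to 0.36 and Mrpl52 (mL52, 1109 bp) from -0.23 to 0.22. Both were then called higher. The deposited length is that of the exons counted for each gene, and the principal transcript is that of GENCODE M21. For some members these lengths are far apart, as for Mrpl13 (7936 and 1223 bp) and Mrpl32 (768 and 3013 bp). With the length of the principal transcript in its place, 61 members fell, 3 rose and the median was -0.53. Mrpl32 was then still called lower, whereas Mrpl52 was again called higher. Over all fits run, 55 members were called lower in Auxin in every one. Whether the trend on length comes from the cells or from the libraries was not tested, and its removal also removes any change in the cells that follows length.

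After the washout, members were called more often as higher than as lower against Auxin. Of 77, 38 rose and 4 fell, while 50.9% of all genes were called, 25.5% in each direction; the medians were 0.19 for the members and 0.00 for all genes. No member changed by 2-fold or more and passed the test, while 4.16% of all genes rose and 6.82% fell that far. For 41 members every Reintroduction library was above every Auxin library and for 6 it was below, against 28.8% and 29.4% of all genes. The summed level of the members was 2970 to 2975 CPM in Reintroduction, above the second Auxin library (2878 CPM) by less than that library differed from the other two. Without that library, 49 members rose, 4 fell and the median was 0.26. With scaling by total counts, 32 rose and 10 fell, where all genes had a median of -0.08. With the length trend removed, 37 rose, 11 fell and the median was 0.16, where 23.6% of all genes were called higher and 29.6% lower.

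The 4 largest rises were those of Mrps12, Mrpl12, Mrps6 and Mrpl34. Mrps12 rose by 0.90 ± 0.07 in log2 (SE, adjusted p = 1.76e-06), to 187% of its Auxin level, with the values given above. Mrpl12 measured 40.9, 40.2 and 41.5 CPM in Reintroduction, all above its 3 Auxin values, and rose by 0.71 ± 0.09 (SE, adjusted p = 4.90e-05). Mrps6 measured 39.1, 35.6 and 37.6 CPM in Mock, 17.0, 19.8 and 17.8 CPM in Auxin and 29.4, 28.0 and 27.0 CPM in Reintroduction, 3 separate bands, and rose by 0.63 ± 0.07 (SE, adjusted p = 2.32e-05). Mrpl34, at 26.0, 26.3 and 28.3 CPM, rose by 0.58 ± 0.08 (SE, adjusted p = 0.000133). Since the Auxin libraries enter both this comparison and the one against Mock, the 2 sets of values are not independent.

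The 4 members that fell after the washout were all of the large subunit: Mrpl23 (-0.43), Mrpl24 (-0.37), Mrpl9 (-0.27) and Mrpl10 (-0.25). Mrpl24 (uL24m), at the mouth of the tunnel, measured 70.5, 62.9 and 65.5 CPM in Mock, 45.5, 44.7 and 44.1 CPM in Auxin and 35.1, 33.4 and 35.3 CPM in Reintroduction. It was lowest in Reintroduction, and no 2 groups overlapped (adjusted p = 0.000233 for Reintroduction against Auxin). Mrpl10 followed the same order, with 69.1 to 74.6, 44.5 to 50.1 and 37.5 to 39.8 CPM. In the small subunit 16 of 26 members rose and 0 were called lower by edgeR, also at an unadjusted p under 0.05 and by DESeq2; in the large subunit 22 of 50 rose. Whether the subunits differ was not tested. Mrps16 did not follow Mrps12: it measured 21.2, 21.8 and 20.3 CPM, within the Auxin range of 17.9 to 23.8 CPM (log2 fold change 0.06 ± 0.11, SE, adjusted p = 0.643). Mrpl58 (0.38) and Mrps30 (0.25) rose, whereas Mrps18a was at -0.13, Mrps18b at 0.00, Mrps18c at 0.02 and Mrps36 at 0.34 without passing the test.

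Against Mock, the Reintroduction libraries had lower levels of 71 of the 77 members. By edgeR or DESeq2, 0 were higher (1 at an unadjusted p under 0.05, Mrpl23). Of all genes 68.1% were called, 33.4% as lower and 34.7% as higher, and the medians were -0.52 for the members and 0.03 for all genes. The 6 members that were not called were Mrpl1, Mrpl3, Mrpl23, Mrpl57, Mrps10 and Mrps36. A fall of at least 2-fold was called for 5 of the 77 members, no more often than over all genes (7.43%). A rise of that size was called for 0, against 15%. Mrps12 stood at 40.3% of its Mock level (log2 fold change -1.31 ± 0.07, SE, adjusted p = 5.73e-08), Mrpl36 at 40.6% (23.8, 23.2 and 20.6 CPM; -1.30 ± 0.09, SE, adjusted p = 5.43e-07), Mrps16 at 45.0% (-1.15 ± 0.11, SE, adjusted p = 2.91e-06) and Mrpl34 at 47.2% (-1.08 ± 0.08, SE, adjusted p = 6.26e-07). Mrps22, a small-subunit member specific to mitochondria, was nearest to Mock of the members with large rises: it measured 45.8, 42.4 and 42.7 CPM in Mock, 24.6, 27.2 and 26.2 CPM in Auxin and 38.6, 38.0 and 38.4 CPM in Reintroduction (chosen after its values were seen). It was below all Mock libraries (log2 fold change -0.19 ± 0.06, SE, adjusted p = 0.0117). This call was lost with total counts, and with the trend on principal transcript length removed Mrps22 was called higher. With the length trend removed, 63 members were lower, 3 were higher (Mrpl32, Mrpl41 and Mrps28) and the median was -0.40. The largest falls were then those of Mrpl13 (-1.26), Mrps25 (-1.02) and Mrpl15 (-1.001), members with a long deposited exon length. Mrpl15 was the highest member by CPM, with 258 to 271 in Mock, 145 to 177 in Auxin and 173 to 180 in Reintroduction.

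Over the 3 groups, the order of the mean levels was Mock, Reintroduction, Auxin from high to low for 60 of the 77 members and Mock, Auxin, Reintroduction for 16. Mrpl23 alone had Auxin highest. The median member stood at 69.8% of Mock in Reintroduction. Neighbours in this order were not always separate: Auxin and Reintroduction libraries overlapped for 30 members.

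The other genes of mitochondrial translation were examined from lists set up for this purpose; as above, 34.8% of all genes were called lower and 38.4% higher in Auxin. The 5 mitoribosomal proteins with other names, Dap3, Chchd1, Ptcd3, Gadd45gip1 and Aurkaip1, all fell in Auxin, with a median of -0.70; Aurkaip1 went from 127 ± 11.1 CPM in Mock to 50.1 ± 5.65 in Auxin (SD, n = 3; log2 fold change -1.34, adjusted p = 7.44e-08). Of 28 genes for mitoribosome assembly and rRNA modification, 21 fell and 2 rose (median -0.43). After the washout, 6 of the 28 rose and 8 fell (median 0.03), beside 25.5% of all genes in each direction. The largest of these rises was that of Rbfa. Rbfa, an assembly factor of the small subunit, fell by 1.72 in Auxin and rose by 1.01 after the washout on the log2 scale, with means of 51.9 ± 2.59, 15.8 ± 1.15 and 31.7 ± 0.355 CPM in Mock, Auxin and Reintroduction (SD, n = 3). Of 14 translation factors tested, 8 fell and 1 rose (median -0.22; with the length trend removed 9 fell, 2 rose and the median was -0.43). Those that fell included Tufm, the elongation factor that brings tRNA to the ribosome (-1.66), and Gfm1, the factor that moves it along (-0.74). Of 17 genes for transcription of mitochondrial DNA and handling of its RNA, 16 fell (median -0.56), with Grsf1 at -0.99 and Elac2 at -0.99. Among 11 regulators of mitochondrial gene expression, 7 fell and 1 rose (median -0.42); Myc, a transcription factor known to drive ribosome genes, was at 67.2 ± 4.65 CPM in Mock, 6.87 ± 0.461 in Auxin and 25.5 ± 2.39 in Reintroduction (SD, n = 3; log2 fold changes of -3.29 in Auxin against Mock and 1.89 in Reintroduction against Auxin). Of the 9 chaperones and proteases of mitochondria, 6 fell and 2 rose (median -0.62), with Hspd1 at -1.58. Hspa9 was highest in Auxin, with means of 539 ± 7.76, 826 ± 84.0 and 481 ± 3.56 CPM in Mock, Auxin and Reintroduction (SD, n = 3). Mettl15, of the assembly list, was also highest in Auxin, with means of 4.47, 8.07 and 4.94 CPM. Neither Myc nor any other regulator was tested as a cause of the members' values.

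Nuclear genes of the respiratory chain and of the cytosolic ribosome were set beside the members. Of 83 nuclear genes of respiratory chain subunits, 67 fell and 5 rose in Auxin (median -0.73, near that of the members); with the length trend removed 53 fell, 10 rose and the median was -0.36. Of 85 cytosolic ribosomal protein genes, 49 fell and 3 rose (median -0.32); with the trend removed 29 fell, 23 rose and the median was -0.05. After the washout, 20 respiratory chain genes rose and 5 fell (median 0.11), and 5 cytosolic ribosomal protein genes rose and 12 fell (median -0.07), beside 25.5% of all genes in each direction; the 24.1% of respiratory chain genes that rose were near that share. In Reintroduction against Mock, 67 respiratory chain genes were lower and 3 higher (median -0.59). Of the cytosolic ribosomal protein genes, 68 were lower and 0 higher (median -0.44). The members had a median of -0.52, and 33.4% of all genes were called lower and 34.7% higher. With the length trend removed, the 3 medians were -0.33, -0.21 and -0.40 in the same order. Differences between the lists were not tested.

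**Figure D4:**
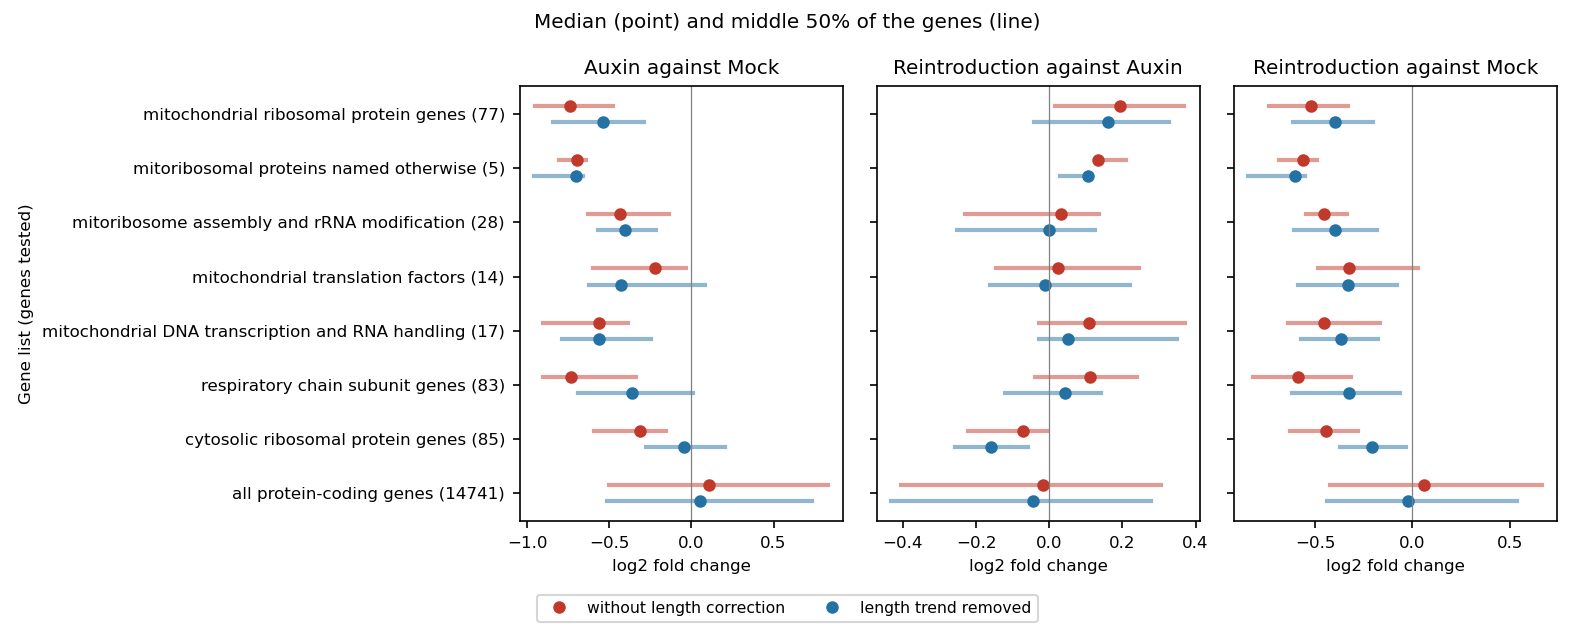
Median log2 fold change (point) and middle 50% of the genes (line) for the mitochondrial ribosomal protein genes and 6 lists of other genes, beside all protein-coding genes, in the 3 comparisons, without and with removal of the length trend. In Auxin against Mock the members are at -0.74 and -0.54, the respiratory chain genes at -0.73 and -0.36 and the cytosolic ribosomal protein genes at -0.32 and -0.05.

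Promoter windows from RefSeq (GRCm38.p6; 250 bases before and 50 after the start of transcription) were on hand for 69 of the 78 members, in 75 windows. They were rich in CpG, with a median of 21 CpG and 58.7% G and C, against 7 and 52.7% over all 32851 windows. Both strands were searched for 4 motifs of transcription factors linked to nuclear genes of mitochondria; none of the motifs contains another. The ETS motif CCGGAAG was in 34.7% of the members' windows and 8.86% of all windows, the YY1 motif AAGATGGC in 16% and 2.75%, the palindromic NRF1 motif in 4% and 0.971%, and the E-box CACGTG in 9.33% and 7.15%. At least 1 of them was in a window of 39 of the 69 members, and in 17.9% of all windows, the first counted by gene and the second by window. The ETS, NRF1 and E-box motifs hold CG themselves, and the shares were not compared with windows of like CpG content. The stretches below hold matches of Mrps12, Mrpl36 and Mrpl34, the 3 largest falls, and of Mrpl22 and Mrps11, each read 5′ to 3′ on the strand of its gene with the motif in capitals (GCCATCTT is AAGATGGC on the other strand).
Mrps12, ETS, chr7:28741802-28741831: aaggaggaaccCCGGAAGgggctggaggta
Mrpl36, YY1, chr13:73330968-73330997: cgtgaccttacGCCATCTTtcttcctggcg
Mrpl36, E-box, chr13:73330954-73330983: cacacgtcatccCACGTGaccttacgccat
Mrpl34, ETS, chr8:71464878-71464907: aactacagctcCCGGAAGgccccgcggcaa
Mrpl22, ETS, chr11:58171600-58171629: cttttccggtcCCGGAAGccggcctcggac
Mrps11, YY1, chr7:78783013-78783042: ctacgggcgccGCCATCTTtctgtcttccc

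The ETS matches of Mrpl34 and Mrpl22 began at positions -37 and -53 from the start of transcription, outside annotated exons, and that of Mrps12 began at position 1, in its first exon. The YY1 match of Mrps11 lay in the first exon of another member, Mrpl46, which starts beside it on the opposite strand; the pair fell by similar amounts in Auxin (-1.11 and -1.04), with 33.5, 29.0 and 30.7 CPM in Mock and 13.8, 15.8 and 13.5 CPM in Auxin for Mrps11. Both matches of Mrpl36 lay before the start of the gene in the count tables, in an exon of a longer Mrpl36 transcript of GENCODE M21. The upstream part of the Mrpl34 window, chr8:71464676-71464925 on the plus strand, touches no annotated exon and is shown whole as an example of such a promoter.
Mrpl34: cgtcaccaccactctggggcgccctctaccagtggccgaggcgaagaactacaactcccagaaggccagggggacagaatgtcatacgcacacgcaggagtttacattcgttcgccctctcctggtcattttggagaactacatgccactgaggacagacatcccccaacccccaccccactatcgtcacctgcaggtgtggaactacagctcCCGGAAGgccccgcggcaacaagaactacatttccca
The windows of Mrpl12, also among the largest falls, and of Mrpl23, the gene that rose, held none of the 4 motifs. The 25 tested members with an ETS match had a median change of -0.66 in Auxin and the 43 without one -0.78; for YY1 the medians were -0.87 with (12 members) and -0.67 without (56 members), for the E-box -0.93 with (5 members) and -0.75 without (63 members), and for NRF1 -0.24 with (3 members) and -0.77 without (65 members). These differences were not tested. These matches describe the letters of the windows and no binding was measured.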

How the data were processed

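Gene counts were deposited as 1 table for each of the 9 libraries, with raw read counts per gene. Per the file headers, the authors counted reads on the exons of each gene with featureCounts 2.0.6, on mm10, with paired-end mode set but without counting pairs once, so that both mates count, and without a strand setting. The submitters' processing notes name Trim Galore 0.6.10, FastQC 0.12.1, Bowtie2 2.5.3 and SAMtools 1.20, without their roles. If Bowtie2, an aligner that does not splice, placed the reads, those across exon junctions would be lost; this was not tested. Symbols were taken from GENCODE M21 (48058 of 48440 identifiers).

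All libraries were fitted in 1 model by group (edgeR 4.0.16 in R 4.3.3, TMM factors of 0.905 to 1.08, filterByExpr, quasi-likelihood test, Benjamini-Hochberg adjustment over 20838 genes). The biological coefficient of variation was 9.15%. Standard errors come from the test statistic. CPM use TMM-scaled totals. The length trend was a natural spline with 4 degrees of freedom for each library over 10167 protein-coding genes, entered as an offset. The scripts were tested on simulated data. P-values measure the spread between the biological replicates stated by the submitters. Every tested member had at least 91 counts in each library (Mrps18c the fewest).

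Members and lists were chosen with earlier results of these data known. Named genes are, in each comparison, the 4 largest called rises and falls with at least 1 CPM. The 3 largest with the length trend removed are named as well. Also named are the 3 highest and 3 lowest by RPKM in Mock, members not tested and members chosen for their role. Of each other list, only some of the genes with the 2 smallest p-values in a comparison are named. Other genes are named by their place in the ribosome. Rps19bp1 and the Sdhaf genes, which are not subunits, were left out of the lists, and Mtrfr was not matched. Alternatives were DESeq2 1.42.0, other scalings and filters, removal of length and GC trends, the replicate number as a block, halved counts, and leaving out each library. One promoter match is not reported here.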

Additional observations from a re-analysis of the deposited data

How the results depend on the processing

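In Auxin against Mock, the fall of the members kept its direction in every fit run. Leaving out 1 library at a time gave 71 to 76 members lower and medians of -0.80 to -0.70. Against Mock, Reintroduction gave 69 to 71 lower with medians of -0.56 to -0.50, and against Auxin 32 to 49 higher with medians of 0.14 to 0.26. DESeq2 gave 74 lower and 1 higher in Auxin. The deviations of same-numbered Mock and Auxin libraries from their group means had correlations of -0.67, -0.53 and 0.49. Those of Mock 1 and Auxin 2, which stood apart in their groups, had a correlation of 0.72. With 3 libraries in a group, 1 such library can set these values, so they cannot show whether the numbers pair the samples. With the replicate block, 74 members were lower and 1 higher in Auxin, 37 higher and 4 lower after washout, and 70 lower and 0 higher in Reintroduction against Mock. Principal transcript lengths, halved counts and leaving out members that share exons were chosen after seeing the data.

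Several settings moved the counts. In Auxin against Mock the number of higher members became 3 with the length trend removed (also with the replicate block and, at lowest and highest, without each library), 3 with principal lengths and 4 with length and GC; the median became -0.54 (also with the replicate block), -0.573, -0.571, -0.553, -0.535, -0.531 or -0.529 without 1 library, -0.53 with principal lengths, -0.56 with length and GC and -0.53 with total counts. In Reintroduction against Auxin the number of lower members became 11 (9 with the replicate block, 8 to 11 without each library), 9, 8 and 10 under these settings, 8 with a filter of 1 CPM in 3 libraries and 7 with halved counts. In Reintroduction against Mock the number of higher members became 3 (1 with the replicate block, 1 to 2 without each library), 5 with principal lengths, 4 with length and GC, and 1 each with total counts, the 1 CPM filter, halved counts, only the groups compared and without the third Reintroduction library; the median became -0.40 (also with the replicate block), -0.451, -0.427, -0.426, -0.422 or -0.407 without 1 library, -0.35, -0.40 and -0.39. Requiring a change of at least 2-fold left 17 lower and 0 higher in Auxin, 0 and 0 after washout and 5 lower in Reintroduction against Mock. Leaving out members that share exons left 45 lower, 23 higher with 1 lower, and 42 lower. The median change of the shortest length class in Auxin went to 0.054 with the length trend or with length and GC removed, and that of the longest to 0.026 and 0.019, by the construction of the trend.

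Among named genes, signs changed with the length trend removed (values with the replicate block follow where they differ). In Auxin, Mrpl32 was at 0.36 (0.23 with length and GC), Mrpl52 at 0.22 (0.24 with GC, 0.40 with principal lengths) and Mrps18c at 0.085 (0.083 with the block, 0.19 with principal lengths); Mrps18a was at 0.11 and Mrps18b at 0.029 with principal lengths. Mrps10 was called higher with principal lengths, and Mrpl27 with length and GC. Mrpl32 was still called lower with principal lengths, also in Reintroduction against Mock. In Reintroduction against Mock, Mrpl32 was at 0.15, Mrpl41 at 0.20 (0.28 with GC, 0.19 with principal lengths), Mrps28 at 0.13 (0.24 and 0.090), Mrps18c at 0.020 (0.025 with the block, 0.092 with principal lengths) and Mrps36 at 0.10 (0.094 with the block, 0.054 with GC, 0.20 with principal lengths). In Reintroduction against Mock, Mrps22 and Mrpl52 were called higher with principal lengths, and Mrpl52 also with length and GC. In Reintroduction against Auxin, genes near 0 changed sign. Mrps16 was at -0.11 (-0.090 with GC, -0.013 with total counts, -0.011 to 0.18 without 1 library). Mrpl48 was at -0.025 with total counts and -0.037 to 0.11 without 1 library, and Mrps30 at -0.020 with GC. Mrps18c was at -0.065 (-0.058 with the block, -0.10 with GC, -0.095 with principal lengths, -0.060 with total counts, -0.028 with the 1 CPM filter and with halved counts, and -0.082 to 0.091 without 1 library). Mrps18b was at -0.021 (-0.055 with principal lengths, -0.077 with total counts, -0.046 with the filter, -0.026 with halved counts, -0.0068 with only the groups compared, and -0.034 to 0.018 without 1 library). Beyond the construction of each setting, the cause was not tested.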
